A study of Oryza sativa with 36 samples.

Results

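Circadian clock genes were followed in the leaf sheaths of 4 rice lines before and during feeding by brown planthopper (BPH). The 10 genes were chosen by identifier from the 38978 genes of the count table, and all 10 were found. They are the morning gene LHY (Os08g0157600), the pseudo-response regulators PRR1 (Os02g0618200), PRR37 (Os07g0695100), PRR73 (Os03g0284100), PRR95 (Os09g0532400) and PRR59 (Os11g0157600), the evening genes GI (Os01g0182600), ELF3-1 (Os06g0142600) and ELF3-2 (Os01g0566100), and the F-box gene FKF1 (Os11g0547000). Every one of the 10 passed the filter on low counts in every comparison.

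The plant clock is a set of genes that switch each other on and off in the course of a day, so that each has its own hour of highest expression. In Arabidopsis, where the network is known best, LHY encodes a MYB transcription factor that is expressed around dawn and holds back evening genes, and the pseudo-response regulators act as repressors in turn from morning to evening, ending with TOC1, the counterpart of rice PRR1. GI is a plant-specific protein of the evening that links the clock to flowering by day length, FKF1 is a blue-light receptor that partners with GI in Arabidopsis, and ELF3 proteins form the scaffold of the evening complex. In rice, PRR37, ELF3-1 and GI are known for their effect on heading date.

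The recurrent parent (RP) was the indica cultivar Wushansimiao, and the near isogenic lines (NILs) carried in that background BPH14 (B14), BPH15 (B15) or both resistance genes (B1415). Seedlings at the 4-leaf stage were left without insects (0) or received 8 BPH nymphs each, and sheaths taken after 3, 6 and 12 h were combined as the early stage and those after 24, 48 and 72 h as the late stage. This gave 12 groups of 3 libraries, each from 15 seedlings according to the labels, which call the libraries biological replicates. Plants grew under 14 h of light at 32 °C and 10 h of dark at 26 °C. Starts of infestation were staggered so that a single end point served all durations. The clock time of harvest is not given in the sources used here, and each fed library combines 3 feeding times, so no value below is a rhythm or a phase. The sheath holds many cell types: in such bulk tissue, fewer cells of a type and less RNA per cell cannot be told apart.

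Library totals ranged from 10601967 to 18692187 counts, and 28626 to 29937 genes had at least 1 count. The clock genes had between 33 counts (LHY) and 25234 counts (GI) in a library, so counting error was largest for LHY. The third non-infested B14 library, B14_0-3, stood apart from its group: over 26470 genes its Spearman correlation was 0.942 and 0.946 with the other B14_0 libraries and 0.966 with B15_0-2. All 3 B15_late libraries correlated best with a B1415_late library (0.988 to 0.994), and B1415_late-2 and B1415_late-3 best with a B15_late library. B14_early-3 and B15_early-1 were closest to each other (0.991). All were kept under their labels, and each comparison was repeated without each library. The summed level of 3 loci commonly used as green leaf markers was 4571 to 4943 CPM (counts scaled to the library size) in RP_0, 7830 to 9713 CPM in B15_0 and 7631 to 10383 CPM in B15_early, and it spanned 4786 to 8537 CPM in B14_0. Its part in the results below was not tested. The root marker locus was at most 0.384 CPM in every library.

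All 10 clock genes had their lowest group mean in non-infested B15. The share of all genes with their lowest mean in that group was not counted. Many genes were low there, as 36% of those tested were called lower in B15_0/RP_0. The highest mean was in RP_late for 4 genes, in B14_late for 4, in RP_0 for PRR73 and in B1415_late for PRR37. The ratio of the highest to the lowest group mean was 4.49 for ELF3-2, 4.2 for LHY, 3.35 for PRR59 and 3.18 for PRR95, and it was smallest for FKF1, at 1.73. Adjacent groups in the order of mean level mostly overlapped: of 11 neighbouring pairs, between 5 (PRR1) and all 11 (FKF1) shared part of their range. These levels are CPM scaled by the trimmed mean of M-values (TMM) over all 36 libraries. The count table gives no transcript lengths, so levels are compared between samples of 1 gene and not between genes.

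**Figure D1:**
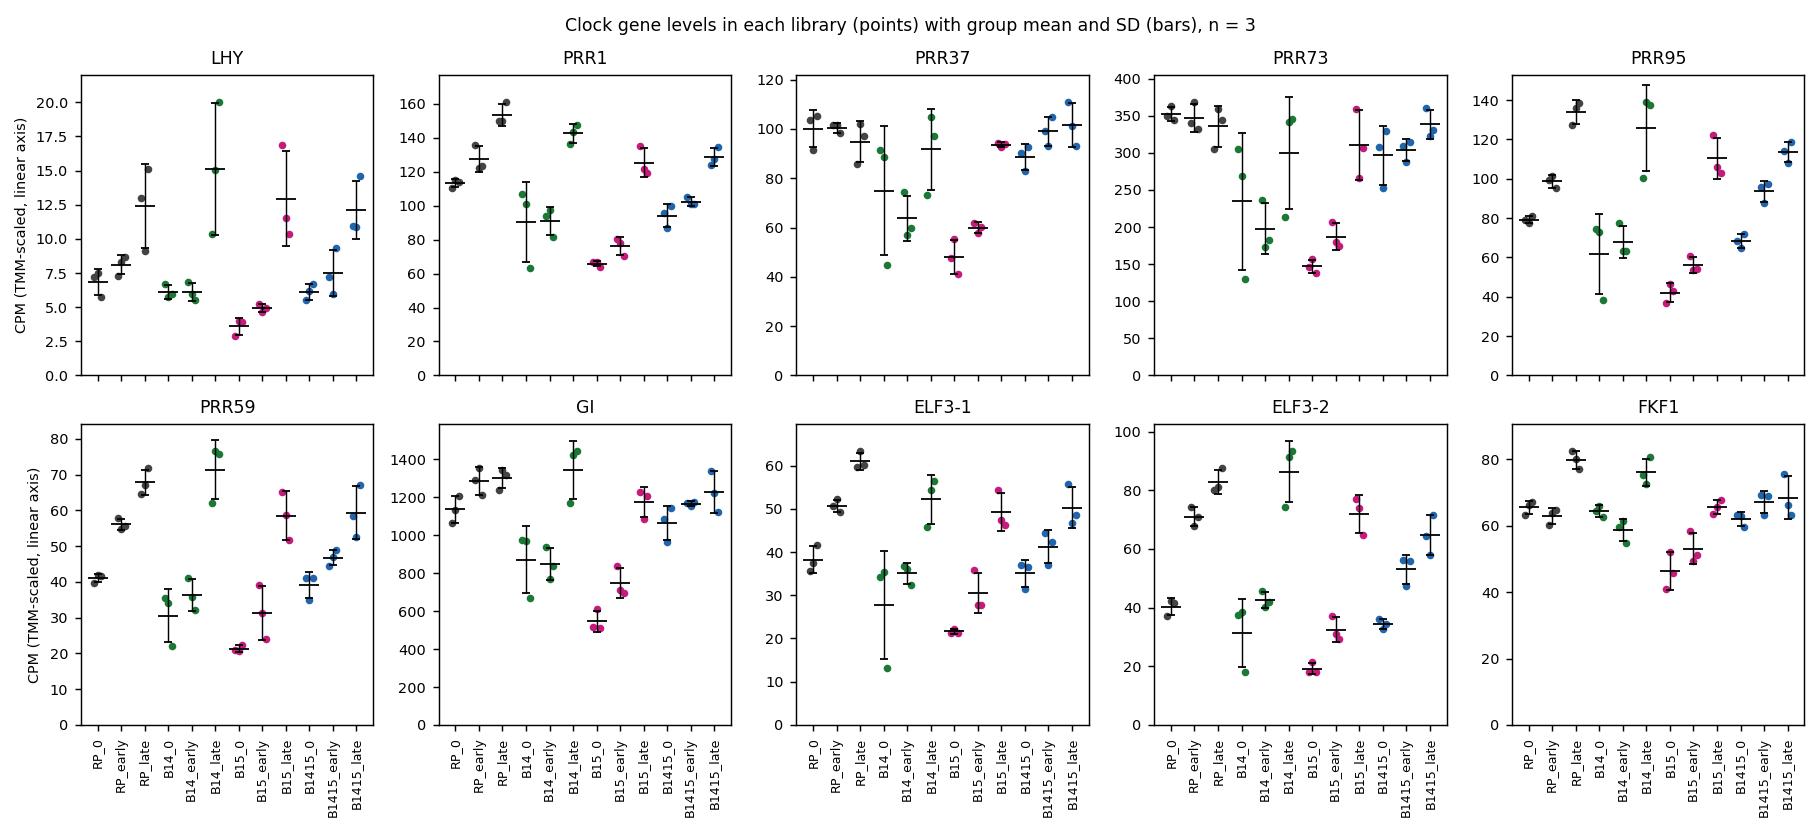
Level of each clock gene in CPM (linear axis from 0, scaled by TMM over all libraries) in the 12 groups; points are libraries and bars the group mean with SD, n = 3. The B15_0 points are the lowest by group mean in all 10 panels, and the LHY, PRR95, PRR59 and ELF3-2 panels climb from 0 to late in every line.

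Non-infested plants were compared between the lines before any insect fed. Each line was sampled as a single group per stage, so a difference of line and one of that group's handling cannot be told apart. In B15 all 10 clock genes were lower than in RP (edgeR quasi-likelihood test, Benjamini-Hochberg adjusted p below 0.05, used throughout for a called gene), and no B15_0 library reached the lowest RP_0 library for any of the 10. The background was broad, as 36% of the genes tested in B15_0/RP_0 were called lower and 35.7% higher. The share of all genes whose libraries did not overlap was not counted, and 73.7% had an unadjusted p below 0.05. The median log2 fold change was -0.94 over the clock genes and 0.01 over all genes, and 13.3% of all genes lay below the clock median. LHY was at 7.24, 7.49 and 5.76 CPM in RP_0 and 2.90, 4.0 and 3.92 CPM in B15_0, a log2 fold change of -0.92 (SE 0.19, adjusted p = 2.40e-04). Morning and evening genes thus stood on the same side in B15_0.

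Among the pseudo-response regulators, PRR73 differed most between B15_0 and RP_0. Its libraries were at 349, 363 and 344 CPM in RP_0 and at 147, 156 and 138 CPM in B15_0, a log2 fold change of -1.27 (SE 0.07, adjusted p = 1.56e-10). PRR37, the closest relative of PRR73 among the 10, was at 103, 91.6 and 105 CPM in RP_0 and 47.6, 55.3 and 41.3 CPM in B15_0, a log2 fold change of -1.07. The evening regulator PRR1 was at 111, 115 and 114 CPM against 66.6, 66.6 and 64.0 CPM. PRR95, at 79.0, 77.5 and 81.3 CPM in RP_0, was at 37.0, 46.4 and 43.1 CPM in B15_0. PRR59 was at 39.7, 41.8 and 41.6 CPM in RP_0, against 20.9, 20.7 and 22.4 CPM. The log2 fold changes of PRR1, PRR95 and PRR59 were -0.79, -0.92 and -0.96, with no overlap between groups.

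GI was at 1067, 1134 and 1207 CPM in RP_0 and 515, 610.3 and 513 CPM in B15_0, a log2 fold change of -1.07 (SE 0.08, adjusted p = 2.44e-09). The lowest RP_0 library was well above the highest B15_0 library. ELF3-1 was at 35.7, 37.4 and 41.6 CPM in RP_0 and 21.3, 22.3 and 21.4 CPM in B15_0, and ELF3-2 at 37.2, 42.2 and 41.7 CPM against 18.0, 21.5 and 18.2 CPM, with log2 fold changes of -0.83 and -1.07. FKF1 showed the smallest difference of the 10, with 63.3, 66.2 and 67.0 CPM in RP_0, 40.8, 52.1 and 45.8 CPM in B15_0 and a log2 fold change of -0.51 (SE 0.09, adjusted p = 4.58e-05). All 10 calls in B15_0/RP_0 held when any 1 of the 6 libraries was left out. Green leaf markers were higher in the same libraries (3 of 3 loci called), and their part in the lower clock levels was not tested.

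In non-infested B14 none of the 10 clock genes was called against RP by edgeR or by DESeq2, where 0.0297% of all genes were called lower and 0.0636% higher. Of the 10, 1 gene (PRR59) had an unadjusted p below 0.05, as did 11.3% of all genes. All 10 estimates were below 0, from -0.62 for PRR73 to -0.06 for FKF1, and the lowest adjusted p was 0.402. This comparison turned on B14_0-3. PRR73 was at 305, 269 and 130.4 CPM in B14_0, GI at 974, 971 and 671 CPM and ELF3-1 at 34.2, 35.5 and 13.2 CPM, so that in each the third library lay far below the others. Relative to the mean of the other B14_0 libraries, B14_0-3 held 38.0% (ELF3-1) to 69.0% (GI) of the level in 8 of the genes, 95.8% for LHY and 95.7% for FKF1. Its median log2 ratio to RP_0 over the 10 genes was -0.97, close to -1.09, -0.82 and -0.88 in the B15_0 libraries and unlike -0.12 and -0.17 in its own replicates. Without B14_0-3, PRR73 (-0.31), PRR59 (-0.26) and GI (-0.24) were called lower in B14_0 than in RP_0, where 6.26% of all genes were then called lower. In a simulation with the spread of all 6 libraries, 2% of genes changed by 1 on the log2 scale were recovered for B14_0/RP_0. Of genes changed by 0.5, 0% were recovered.

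**Figure D2:**
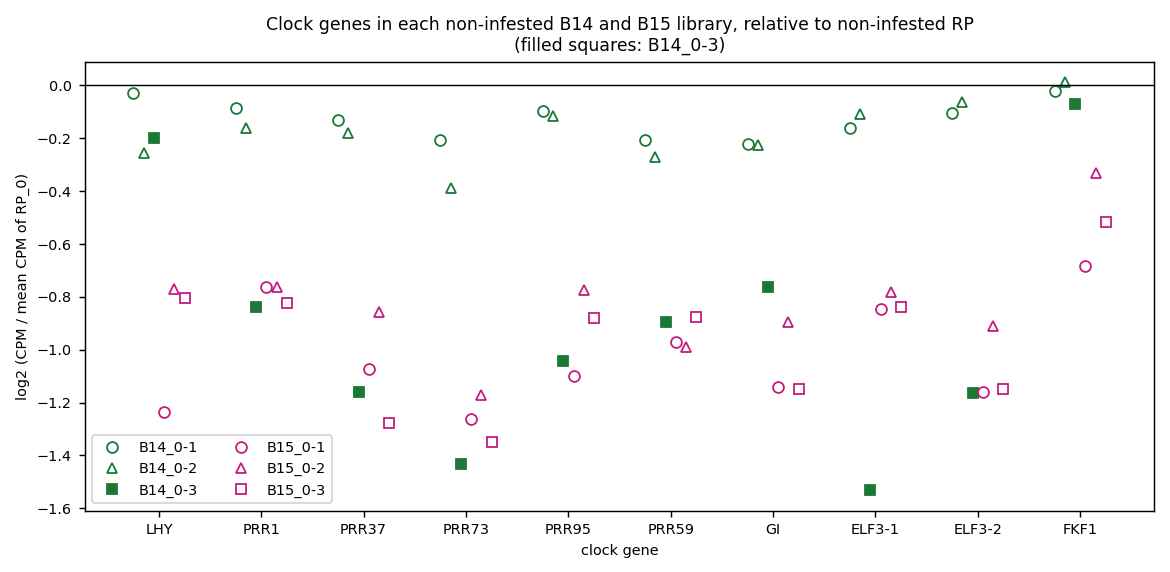
Level of each clock gene in the 3 non-infested B14 and 3 non-infested B15 libraries as log2 of CPM over the RP_0 mean, the line at 0 marking RP_0; each symbol is 1 library. B14_0-3 (filled squares) sits below its own replicates for 8 genes, for ELF3-1 also well below the 3 B15_0 libraries, and close to its replicates for LHY and FKF1.

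In non-infested B1415, which carries BPH15 as well as BPH14, none of the 10 genes was called against RP by edgeR or DESeq2, with 2.88% of all genes lower and 3.93% higher. The estimates ran from -0.25 (PRR1) to -0.05 (PRR59), all below 0, and 4 had an unadjusted p below 0.05, as did 22.2% of all genes. PRR73 was at 308, 253 and 329 CPM and GI at 1085, 964 and 1145 CPM in B1415_0. For both genes the B1415_0 libraries lay above all 3 B15_0 libraries. Without B1415_0-3, PRR1 and PRR73 were called lower than in RP, at -0.29 and -0.31 on the log2 scale, with 4.28% of all genes then lower and 4.93% higher. With all libraries, 2 of the 3 green leaf loci were called higher in B1415_0 than in RP_0.

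At the early feeding stage, clock genes were lower in B15 and B14 than in RP at the same stage, and fewer were lower in B1415. All 10 were called lower in B15, 9 in B14 and 4 in B1415, and none was higher in any line. Of all genes tested, 29.7% were lower and 28.7% higher in B15_early/RP_early, 19.8% and 16.8% in B14_early/RP_early, and 9.3% and 9.31% in B1415_early/RP_early. The median log2 fold change of the clock genes was -0.79 in B15, -0.62 in B14 and -0.14 in B1415. The share of all genes below that median was 11.5%, 10.7% and 27.4%. The 3 comparisons use the same RP_early libraries and are not independent of each other.

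ELF3-2, of the evening complex, differed most in B15 and B1415. It was at 74.2, 67.8 and 70.8 CPM in RP_early, 37.2, 30.8 and 29.3 CPM in B15_early, 45.8, 40.4 and 41.7 CPM in B14_early and 56.1, 47.4 and 55.9 CPM in B1415_early. No NIL library reached the lowest RP library. The log2 fold changes against RP_early were -1.16 (SE 0.10, adjusted p = 2.07e-08) in B15, -0.78 (SE 0.08, adjusted p = 5.35e-06) in B14 and -0.39 (SE 0.08, adjusted p = 0.00131) in B1415. Its paralogue ELF3-1 was also lower in all 3 NILs, at -0.77 in B15, -0.58 in B14 and -0.27 in B1415 on the log2 scale.

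In B14 the gene that differed most was PRR73. Its levels were 341, 369 and 333 CPM in RP_early, 237, 174 and 183 CPM in B14_early and 207, 179.9 and 175 CPM in B15_early, with log2 fold changes of -0.86 (SE 0.10, adjusted p = 1.85e-05) in B14 and -0.92 (SE 0.09, adjusted p = 7.76e-08) in B15. In B1415_early the same gene was at 309, 287 and 315 CPM, below RP in all libraries but not called (adjusted p = 0.0829). PRR37, its close relative, was lower in the same lines, with 102, 102 and 98.2 CPM in RP_early, 74.3, 57.0 and 59.8 CPM in B14_early, 62.0, 57.6 and 60.2 CPM in B15_early and 99.1, 93.0 and 105 CPM in B1415_early. The B1415 and RP libraries overlapped. PRR1 was lower in all 3 NILs, at -0.77 in B15, -0.53 in B14 and -0.29 in B1415, and so was PRR59, at -0.87, -0.67 and -0.24. PRR95 was lower in B15 (-0.85) and B14 (-0.59). In B1415 its estimate was -0.05 and the libraries overlapped.

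GI was at 1291, 1355 and 1209.7 CPM in RP_early, 837, 712 and 695 CPM in B15_early and 939, 772 and 838 CPM in B14_early, with log2 fold changes of -0.81 and -0.64. LHY was at 7.32, 8.32 and 8.68 CPM in RP_early against 5.23, 4.68 and 4.95 CPM in B15_early and 6.83, 6.00 and 5.49 CPM in B14_early. The log2 fold changes were -0.74 (SE 0.16, adjusted p = 5.53e-04) and -0.46 (SE 0.15, adjusted p = 0.0279). The LHY call in B14 was lost when any 1 of RP_early-2, RP_early-3, B14_early-2 or B14_early-3 was left out, where the adjusted p reached at most 0.162 over the alternatives. FKF1 was called in B15, at -0.28 (SE 0.09, adjusted p = 0.0105), and there not without B15_early-2. Its estimates were -0.15 in B14 and 0.12 in B1415. The B1415 count fell from 4 to 2 without RP_early-1 or without B1415_early-2, and to 0 in the single fit of 36 libraries (adjusted p 0.12 to 0.43).

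At the late stage no clock gene was called between any NIL and RP, by edgeR or DESeq2. At an unadjusted p below 0.05 the counts were 0 in B14, 4 in B15 and 4 in B1415, and the shares of all genes 24.4%, 12.2% and 13.1%. By adjusted p, fewer genes of any kind differed than at the early stage: 5.98% higher and 4.62% lower in B14_late/RP_late, 0.496% and 0.217% in B15_late/RP_late, and 0.0124% and 0.0248% in B1415_late/RP_late. GI, which in B15_0 lay far below RP_0, was at 1229, 1085 and 1209 CPM in B15_late and 1240.4, 1342 and 1318 CPM in RP_late, without overlap. PRR73 was at 359, 266 and 306 CPM in B15_late and 305, 358 and 344 CPM in RP_late, with overlapping libraries. The estimates of the 10 genes ranged from -0.21 (ELF3-1) to 0.30 (LHY) in B14, from -0.30 (ELF3-1) to 0.06 (LHY) in B15 and from -0.34 (ELF3-2) to 0.11 (PRR37) in B1415. In that order, 6, 9 and 8 estimates were below 0. The clock medians were -0.04, -0.20 and -0.20, with 44.6%, 16.3% and 18.6% of all genes below them. Libraries did not overlap for 2, 6 and 5 of the genes. The share of all genes without overlap was not counted. In B15 none was called without any 1 library. Without B14_late-1, LHY was called higher in B14 (0.50), where 10.4% of all genes were then higher and 11.6% lower. Without B1415_late-3, PRR1 (-0.27) and ELF3-2 (-0.42) were called lower in B1415, where 8.55% of all genes were then lower and 6.18% higher.

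The change with feeding was examined within each line against its own non-infested plants. In RP, 6 clock genes rose by the early stage and 8 by the late stage, and none fell. Of all genes, 21.3% rose and 21.7% fell in RP_early/RP_0, and 29.4% rose and 29.9% fell in RP_late/RP_0. The clock median was 0.23 early and 0.57 late, above 72% and 80.7% of all genes. ELF3-2 rose most, from 37.2, 42.2 and 41.7 CPM in RP_0 to 74.2, 67.8 and 70.8 CPM early and 79.9, 81.0 and 87.4 CPM late. Its log2 fold change was 0.83 (SE 0.07, adjusted p = 2.98e-09) early and 1.05 (SE 0.08, adjusted p = 7.24e-12) late. PRR59 rose from 39.7, 41.8 and 41.6 CPM to 57.8, 54.7 and 55.7 CPM early, and to 64.7, 67.0 and 71.7 CPM late. PRR95 rose from 79.0, 77.5 and 81.3 CPM to 99.3, 102 and 95.2 CPM early, and to 127, 136 and 139 CPM late. For both genes the 3 stages did not overlap. ELF3-1 rose by 0.42 early and 0.69 late, and PRR1 by 0.18 and 0.46, on the log2 scale.

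GI rose by less in RP, with log2 fold changes of 0.19 (SE 0.07, adjusted p = 0.0305) early and 0.21 (SE 0.08, adjusted p = 0.0177) late. The early call of GI was lost without RP_0-1, RP_0-2 or RP_early-1, and the late call without RP_0-1 or RP_0-2. The early call of PRR1 was lost without any 1 of the RP_0 libraries or RP_early-1. In the single fit of 36 libraries, PRR59 and ELF3-2 were left at the early stage. LHY and FKF1 were called at the late stage. LHY went from 7.24, 7.49 and 5.76 CPM in RP_0 to 13.0, 9.09 and 15.1 CPM in RP_late, a log2 fold change of 0.89 (SE 0.16, adjusted p = 3.33e-05), and FKF1 from 63.3, 66.2 and 67.0 to 82.4, 80.1 and 77.0 CPM, a log2 fold change of 0.30 (SE 0.07, adjusted p = 6.84e-04). PRR37 and PRR73 were not called at either stage in RP. Their late estimates were -0.06 and -0.05 (SE 0.08 and 0.07), and their libraries overlapped those of RP_0. Green leaf markers were at 4567 to 5483 CPM in RP_late, overlapping RP_0, with 0 of 3 loci called. In RP_early/RP_0, 2 of the 3 were called higher (21.3% of all genes). The part of these markers in the changes was not tested.

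In B15, 7 clock genes rose by the early stage and all 10 by the late stage. Of all genes, 11.5% rose and 12.4% fell in B15_early/B15_0, and 31.6% rose and 30.3% fell in B15_late/B15_0. The clock median was 0.42 early and 1.14 late, above 86.4% and 89.6% of all genes. The 7 early genes were ELF3-2 (0.74), PRR59 (0.55), ELF3-1 (0.48), GI (0.45), PRR95 (0.40), PRR73 (0.34) and PRR37 (0.31). Without B15_0-1 the count was 4, with PRR37, PRR73 and PRR95 no longer called and 6.9% of all genes then higher. In the single fit of 36 libraries 3 were left, PRR59, GI and ELF3-2. PRR37 was also lost in DESeq2 and without any 1 library except B15_0-2. By the late stage ELF3-2 had gone from 18.0, 21.5 and 18.2 CPM to 76.9, 74.1 and 64.6 CPM, a log2 fold change of 1.89 (SE 0.12, adjusted p = 2.32e-07). LHY had gone from 2.90, 4.0 and 3.92 CPM to 16.9, 11.6 and 10.4 CPM, a log2 fold change of 1.83 (SE 0.23, adjusted p = 1.76e-05). These were the largest changes of any clock gene in the 8 feeding comparisons.

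PRR59, PRR95, ELF3-1, GI and PRR73 rose between 1.07 and 1.45 on the log2 scale in B15_late/B15_0, PRR37 by 0.95, PRR1 by 0.92 and FKF1 by 0.49. PRR73 shows the course: its B15 libraries were at 147, 156 and 138 CPM before feeding, 207, 179.9 and 175 CPM early and 359, 266 and 306 CPM late. The 3 stages did not overlap. The late B15 level of PRR73 overlapped that of non-infested RP. When RP_0 was taken as the baseline, an alternative added after the data had been seen, B15_late had 5 genes higher (24% of all genes were higher), and the estimates of PRR37 and PRR73 were -0.08 and -0.17. With the same baseline all 10 genes were lower in B15_early, where 31.7% of all genes were lower and 32.1% higher. The estimates ran from -0.89 for PRR73 to -0.30 for ELF3-2 among the 7 that had risen against B15_0. All 10 late calls against B15_0 held without any 1 library. Green leaf markers were at 4505 to 5771 CPM in B15_late, below every B15_0 library, and their part in these changes was not tested.

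In B14, no clock gene was called at the early stage, by edgeR or DESeq2 or at an unadjusted p below 0.05, and 6 rose by the late stage. Of all genes, 1.22% rose and 0.327% fell in B14_early/B14_0, and 20.5% rose and 20.5% fell in B14_late/B14_0. Here too the baseline holds B14_0-3. Without it, PRR37 (-0.47) and PRR73 (-0.51) fell by the early stage, where 13% of all genes were called lower. PRR73 was at 237, 174 and 183 CPM in B14_early, below B14_0-1 and B14_0-2 and above B14_0-3. The late genes were ELF3-2 (1.51, SE 0.28, adjusted p = 0.00479), LHY (1.36, SE 0.27, adjusted p = 0.00683) and PRR59 (1.28, SE 0.20, adjusted p = 0.00252), followed by PRR95 (1.08), PRR1 (0.71) and GI (0.68). Without B14_0-3 the same 6 were called with smaller changes, ELF3-2 at 1.19 and LHY at 1.29, and ELF3-1 (0.59) was added. Without B14_late-2 or without B14_late-3, LHY, PRR59 and ELF3-2 were left, where 12.8% and 12.3% of all genes rose. The GI call was also lost without B14_0-1, B14_0-2 or B14_late-1, and the PRR1 call without B14_late-1. Over the alternatives their adjusted p reached 0.119 and 0.0832. LHY was at 10.4, 15.0 and 20.03 CPM in B14_late, the widest spread of this gene in any group. Green leaf markers were at 3059 to 4369 CPM in B14_late, below every B14_0 library, with 0 of 3 loci called. Their part in these changes was not tested.

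In B1415, 3 clock genes rose early and 6 late. Of all genes, 13.9% rose and 13.1% fell in B1415_early/B1415_0, and 18.6% rose and 18.6% fell in B1415_late/B1415_0. The early genes were ELF3-2 (0.64, SE 0.09, adjusted p = 9.98e-05), PRR95 (0.47, SE 0.08, adjusted p = 4.86e-04) and PRR59 (0.28, SE 0.09, adjusted p = 0.0356). The PRR59 call was lost in the single fit of 36 libraries and without any 1 library except B1415_0-3 (adjusted p up to 0.232). By the late stage LHY (1.00, SE 0.18, adjusted p = 0.00190), ELF3-2 (0.92), PRR95 (0.74), PRR59 (0.61), ELF3-1 (0.53) and PRR1 (0.46) had risen. LHY was at 5.50, 6.18 and 6.69 CPM in B1415_0 and 10.9, 10.9 and 14.6 CPM in B1415_late. ELF3-2 was at 36.1, 32.7 and 34.6 CPM in B1415_0 and 64.5, 58.1 and 71.7 CPM in B1415_late. Neither gene overlapped between the stages. PRR73 was at 361, 322 and 331 CPM in B1415_late and its estimate was 0.20, with overlapping libraries. Without B1415_late-3, 7 genes were called late.

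Over the 8 feeding comparisons the calls thus numbered 46 rises and 0 falls among 80 pairs of gene and comparison. Over the 9 line comparisons 0 were higher and 33 lower among 90. These pairs are not independent, as comparisons share their non-infested or RP libraries. Shares of all genes were not computed for such pooled counts or for rises shared by lines. In single feeding comparisons 1.22% to 31.6% of all genes rose, and in the line comparisons with calls 9.3% to 36% were lower. Late in feeding, LHY, PRR1, PRR95, PRR59 and ELF3-2 rose in all 4 lines, ELF3-1 and GI in 3, FKF1 in 2, and PRR37 and PRR73 in 1, which was B15. At the early stage LHY and FKF1 were called in no line. A locus taken from general nomenclature as a seed glutelin marker (Os01g0762500) also rose with feeding, from 0 to 1.41 CPM in non-infested groups to 6.29 to 20.9 CPM in late groups. Before feeding it was called lower than in RP in B15 and B1415, where 36% and 2.88% of all genes were. Whether it bears on the clock values was not tested.

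**Figure D3:**
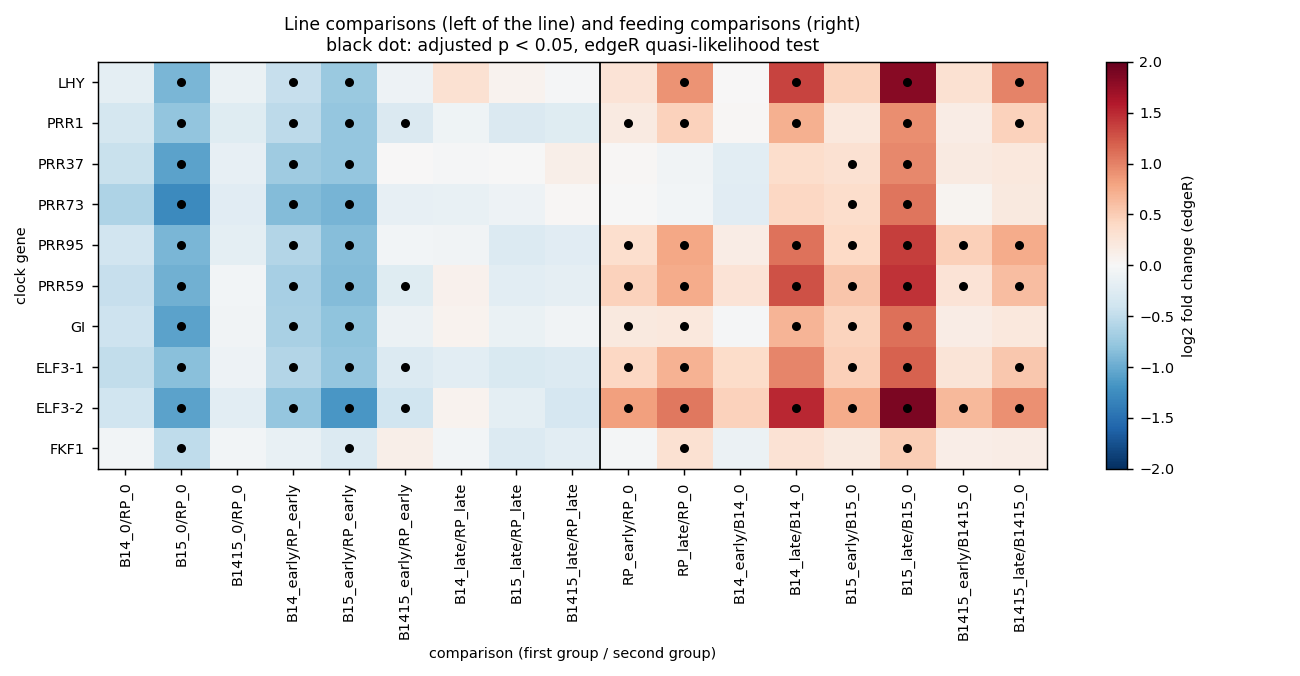
Log2 fold change (colour) of each clock gene in the 9 line comparisons (left of the vertical line) and the 8 feeding comparisons (right), first group over second; a black dot marks adjusted p below 0.05. Dots fall on lower values on the left, at stages 0 and early, and on higher values on the right, with all 10 genes marked in B15_0/RP_0, B15_early/RP_early and B15_late/B15_0.

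Whether feeding changed a gene differently in a NIL than in RP was tested as the line by stage interaction, in the 12 libraries of each line pair. The late change was larger in B15 than in RP for 9 clock genes, where 46.4% of all genes were called in either direction. The median difference was 0.75 over the clock genes, above that of 83.3% of all genes. The difference between the changes was greatest for PRR73, 1.098 (SE 0.15, adjusted p = 3.50e-05), and PRR37, 0.99 (SE 0.14, adjusted p = 5.75e-05), the genes that had not been called with feeding in RP. It was 0.92 for LHY, 0.86 for GI, 0.81 for ELF3-2, 0.68 for PRR59, 0.58 for PRR95, 0.47 for ELF3-1 and 0.44 for PRR1. FKF1 was not called (0.17, SE 0.12, adjusted p = 0.280). The LHY call was lost without RP_0-2, B15_0-1 or B15_late-1. This test contains B15_0, in which all 10 genes were below RP_0, and B15 and RP were not called different at the late stage.

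In the 5 remaining interactions no clock gene was called by edgeR. The share of all genes called was 0.0121% for B14 by early, 0.238% for B14 by late, 4.5% for B15 by early, 0.646% for B1415 by early and 0.0279% for B1415 by late. At an unadjusted p below 0.05 the count was 1 for B14 by late, 1 for B15 by early and 0 for the others, against 17.6%, 21.1% and 5.67% to 12.2% of all genes. DESeq2 called PRR73 in B15 by early (0.34, with 6.84% of all genes called) and none elsewhere. Without B14_0-3, 8 clock genes were called in B14 by early, all with a change below that of RP, from -0.66 for ELF3-2 to -0.37 for PRR1, and 6.32% of all genes were called in that direction. LHY and FKF1 were the exceptions. Without B15_0-2, PRR37 (0.37) and PRR73 (0.35) were called in B15 by early, where 9.53% of all genes were then called.

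Ratios of clock genes within a library do not depend on how the library is scaled. LHY to PRR1 sets the morning against the evening component. The log2 ratio of their counts, with 0.5 added, was higher late than before feeding in all 4 lines, by 0.89 in B15, 0.56 in B14, 0.52 in B1415 and 0.40 in RP. The libraries did not overlap in B15 and B1415, where the exact two-sided permutation test gave p = 0.1, the smallest that 3 against 3 libraries allow (0.708 after adjustment over 17 comparisons). In RP and B14 the libraries of the stages overlapped. Against GI in place of PRR1, the late differences were 0.61 to 0.77. Between lines the LHY to PRR1 ratio differed by -0.13 to 0.37, with overlap in all 9 comparisons.

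The ratio of PRR95 to PRR73 was added after the levels had been seen and is given as a description. It was higher late than before feeding in all 4 lines with no overlap of libraries, by 0.83 in RP, 0.66 in B14, 0.53 in B1415 and 0.32 in B15. By the early stage it was higher by 0.07 in B15, with overlap, and by 0.34 in RP, 0.36 in B14 and 0.41 in B1415, without overlap. PRR95 gained on PRR73 with feeding also in B15, where both genes rose, and in RP, where PRR73 was not called.

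**Figure D4:**
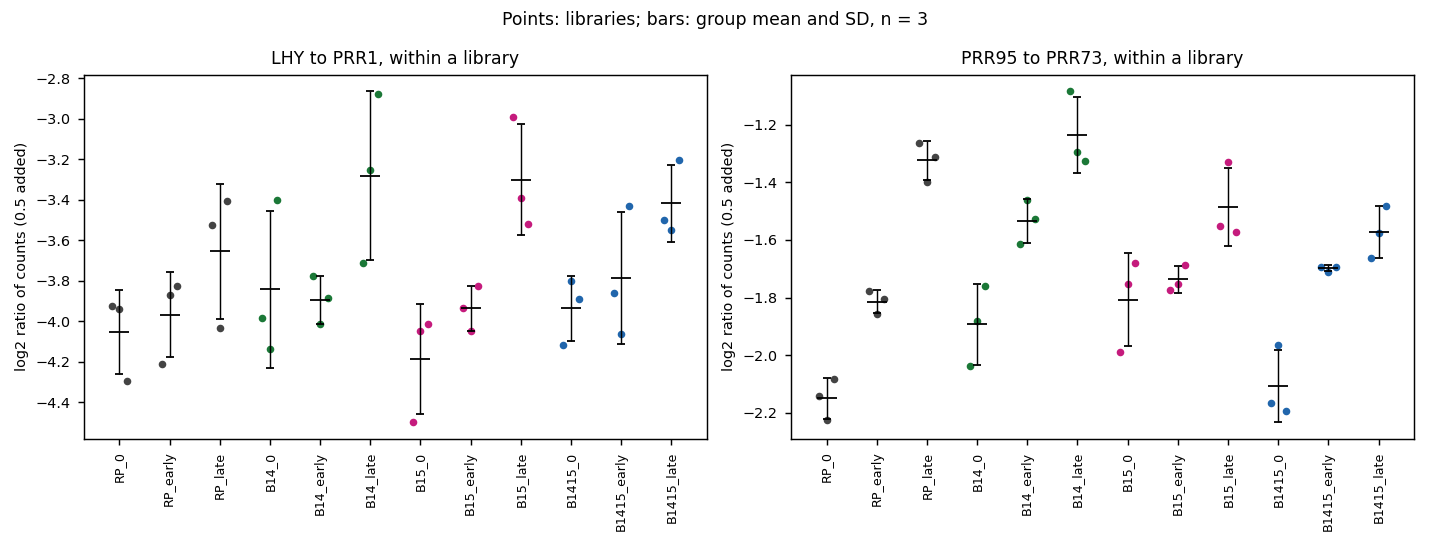
Log2 ratio of counts (0.5 added) of LHY to PRR1 and of PRR95 to PRR73 within each library, by group; points are libraries and bars the group mean with SD, n = 3. Both ratios are highest by mean at the late stage in each line, and the PRR95 to PRR73 ratio separates 0 from late in all 4 lines.

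Other genes of the light and clock pathways were taken as 3 lists by identifier from general rice nomenclature. No source used here pairs those identifiers with names, so the lists are described by their counts. Of 6 photoreceptor loci, 5 were lower in B15_0/RP_0, 5 in B15_early/RP_early, 5 in B14_early/RP_early and 2 in B1415_early/RP_early. The shares of all genes lower there were 36%, 29.7%, 19.8% and 9.3%, in that order. None of the 6 loci was called between a NIL and RP late. With feeding, 5 rose in RP_early/RP_0 (21.3% of all genes rose), 5 in RP_late/RP_0 (29.4%) and 5 in B15_late/B15_0 (31.6%). A further 4 rose in B1415_late/B1415_0 (18.6%) and 2 in B14_late/B14_0 (20.5%). In each of B15_early/B15_0 (11.5%) and B1415_early/B1415_0 (13.9%) 1 locus rose, and none fell in any feeding comparison. The photoreceptor median was -0.60 in B15_0/RP_0 and 0.92 in B15_late/B15_0, set beside -0.94 and 1.14 for the clock genes. Of 5 other clock-related loci, at most 3 were called in any comparison. In B15_0/RP_0, 1 was higher and 2 lower, where 35.7% and 36% of all genes were. In B15_early/RP_early 3 were lower (29.7% of all genes). Os01g0971800, of this last list and chosen after its values were seen, moved against the 10 clock genes in B15_0/RP_0, where it was higher (0.28). Its late change was smaller in B15 than in RP (interaction -0.79). In that interaction 2 other loci of the list were called with a larger change in B15, as the clock genes were. Of all genes, 46.4% were called there in either direction. Of 8 loci of photoperiodic flowering, 4 passed the filter on low counts and at most 2 were called in a comparison. This was B15_0/RP_0, with 1 higher and 1 lower, where 35.7% of all genes were higher and 36% lower.

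By likeness (Pearson's r of log2 mean CPM, 2 added) over the 12 groups, among 17255 genes with a mean of at least 5 CPM, the genes closest to LHY were Os04g0615100 (r = 0.99), Os08g0542000, Os02g0273000, Os08g0471900 and Os01g0158000, and those closest to PRR1 were Os04g0437600 (r = 0.99), Os07g0180700, Os12g0114200, Os12g0611100 and Os02g0625000, the last a locus of the photoreceptor list. Each of these 10 genes had its lowest group mean in B15_0 and its highest in B14_late or RP_late, as LHY and PRR1 had. Genes picked for likeness over the same group means share such extremes by choice. Among the clock genes themselves, PRR37 and PRR73 were the most alike (r = 0.99) and LHY and PRR73 the least (r = 0.73). These are descriptions over 12 group means that share libraries and lines, with no test.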

How the data were processed

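RNA from leaf sheaths of 4 lines at 3 stages was sequenced in 36 libraries. The authors deposited 1 table of read counts per gene, unnormalized, made with HISAT2 2.0.4 on IRGSP-1.0 (per the labels' processing notes) and HTSeq. The annotation release and the strand setting of the counting are not given in the sources used here, and the sources name different library kits, sequencers and lists of feeding times. Reads of overlapping or antisense genes may therefore be shared. Every library column was matched to its sample by title; RP libraries are titled WT.

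Each comparison was fitted alone on its 6 libraries (12 for an interaction) with edgeR 4.0.16 in R 4.3.3: filterByExpr with a minimum count of 10, TMM scaling, quasi-likelihood test, Benjamini-Hochberg adjustment over all genes tested, threshold 0.05. Ratios were compared by the exact permutation test. All 10 clock genes are named; fold changes are printed as results where they passed. The clock genes, lists and ratios were chosen with earlier results of these data known. Alternatives were DESeq2 1.42.0, its size factors, no filter, a single fit of 36 libraries, the study's definition of a differentially expressed gene, a replicate block and each library left out. Same-numbered replicates did not deviate together (correlation -0.46 to 0.24, all pairs above 0.1 in 0 of 17 comparisons), so no block was used. No replicate pair of the 36 agreed within sampling noise (lowest chi-square per gene 2.21). P-values measure the spread between libraries only. The tests were tried on simulated data with 200 genes changed by 1 on the log2 scale. Of these, 76% were recovered in B15_late/B15_0, 2% in B14_0/RP_0, 59% in the B15 by late interaction and 6.5% in the B14 by late interaction. In B15_late/B15_0 there were 21 false calls. With a change of 0.5, 5% were recovered in B15_late/B15_0 and 0% in B14_0/RP_0. Far more genes were called in the B15 comparisons of the data. Recovery depends on that share, so the percentages do not measure how many true changes were found there. The planned search for promoter motifs was not run, as no sequence table was used here.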

Additional observations from a re-analysis of the deposited data

Results flagged for a closer look

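For 9 of the 10 clock genes the change from 0 to late feeding differed between B15 and RP, by the edgeR quasi-likelihood test of the line by stage interaction. The difference (B15 change minus RP change, log2) was 1.098 for PRR73 (adjusted p = 3.50e-05), 0.99 for PRR37 (adjusted p = 5.75e-05), 0.92 for LHY (adjusted p = 0.021), 0.86 for GI (adjusted p = 9.56e-05) and 0.81 for ELF3-2 (adjusted p = 0.000195). It was 0.68 for PRR59 (adjusted p = 0.000639), 0.58 for PRR95 (adjusted p = 0.00195), 0.47 for ELF3-1 (adjusted p = 0.00801) and 0.44 for PRR1 (adjusted p = 0.00374). Over the alternatives the adjusted p ranged up to 0.0631 for LHY, lost without RP_0-2, B15_0-1 or B15_late-1, and up to 0.125 for ELF3-1, lost in the single fit of 36 libraries. The 7 remaining genes were called in every alternative fit, and the study's 2-fold definition left 1 gene called. In all 3 B15_0 libraries the 10 genes were below the RP_0 mean, and 46.4% of all genes were called in this interaction, in either direction.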

How the results depend on the processing

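Of the 88 calls of a clock gene in a comparison or interaction, 58 held under every alternative run on them, apart from the study's definition (unadjusted p below 0.05 and 2-fold), which was applied to counts. Other size factors and no filter lost 0 of 88, DESeq2 1, the single fit of 36 libraries 16, and leaving out 1 library 45 of 582. With the replicate number as a block, 4 of 88 calls were lost (LHY in B14_early/RP_early, where 8 genes were left, PRR1 and GI in B14_late/B14_0, and PRR37 in B15_early/B15_0), and no count moved by over 1.5 times; the libraries share only a number. In the single fit, 2 genes were called in B14_0/RP_0, 0 in B1415_early/RP_early, 2 in RP_early/RP_0 and 3 in B15_early/B15_0. Of all genes, 12.6% were called in B14_0/RP_0 in that fit, in either direction, against 0.0933% in the main fit. Under the study's definition, which 1.58% to 27.6% of all genes met, 4 were called in B15_0/RP_0 (24.4% of all genes). In each of B15_early/RP_early, RP_late/RP_0 and B15 by late 1 was called. None was called in B14_early/RP_early, B1415_early/RP_early, RP_early/RP_0, B15_early/B15_0, B1415_early/B1415_0 and B1415_late/B1415_0. LHY, PRR73, PRR95, PRR59, GI, ELF3-1 and ELF3-2 met the definition in B15_late/B15_0, and LHY, PRR95, PRR59 and ELF3-2 in B14_late/B14_0. DESeq2 called 1 gene in B15 by early. LHY to GI gave 0.77 in B1415 in place of 0.52 for LHY to PRR1.

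With RP_0 as the baseline, chosen after seeing the data, 5 genes were lower in B14_early (24.3% of all genes) and 5 higher in B15_late (24%). The rises in B15_early turned to -0.72 (PRR37), -0.89 (PRR73), -0.48 (PRR95), -0.38 (PRR59), -0.59 (GI), -0.32 (ELF3-1) and -0.30 (ELF3-2), and those in B15_late to -0.084 (PRR37) and -0.17 (PRR73), since B15_0 lay below RP_0.

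When libraries were left out singly, the counts ranged from 0 to 3 in B14_0/RP_0 (without B14_0-3), 10 to 10 in B15_0/RP_0, 0 to 2 in B1415_0/RP_0, 8 to 9 in B14_early/RP_early, 9 to 10 in B15_early/RP_early, 2 to 4 in B1415_early/RP_early, 0 to 1 in B14_late/RP_late, 0 to 0 in B15_late/RP_late and 0 to 2 in B1415_late/RP_late. They ranged from 4 to 6 in RP_early/RP_0, 7 to 8 in RP_late/RP_0, 0 to 2 in B14_early/B14_0, 3 to 7 in B14_late/B14_0, 4 to 7 in B15_early/B15_0, 10 to 10 in B15_late/B15_0, 2 to 3 in B1415_early/B1415_0 and 6 to 7 in B1415_late/B1415_0. For interactions they were 0 to 8 in B14 by early, 0 to 2 in B15 by early, 8 to 9 in B15 by late and 0 in the others. Where a count rose from 0, the share of all genes is given with that comparison above. The late LHY to PRR1 difference lay between 0.27 and 0.59 (RP), 0.36 and 0.78 (B14), 0.73 and 0.99 (B15), and 0.41 and 0.58 (B1415).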
